A study of Homo sapiens with 12 samples.

Results

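The genes described here encode the machinery that shows peptides to T cells, in HDLM-2, a human Hodgkin lymphoma cell line. The group comprised 37 genes listed by known role: 16 of the class I pathway, 12 of the class II pathway, 6 subunits of the RFX and NF-Y transcription factors, and CD80, CD86 and CD274. They were found by gene symbol in the probe annotation of the array. Of the 37 genes, 36 had a probe and 35 were above background (detection p under 0.05) throughout the 3 arrays of some group, and these 35 were tested within the 10529 genes tested in all. HLA-DQA1 had no probe in that annotation and was not analysed here. NLRC5, the transactivator of class I genes, had 1 probe, which was above background on 0 of 12 arrays and was not tested.

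HDLM-2 cells were exposed for 24 hours to 100 nM givinostat, an inhibitor of histone deacetylases, to 5 µM sorafenib, an inhibitor of several kinases, to the combination of both drugs at these doses, or to neither drug (control). Each of these 4 groups had 3 arrays, lettered A, B and C, of total RNA on Illumina HumanHT-12 V3 bead arrays, 12 in all. The cells of every group were of this cell line in culture, without other cells, and the labels name no vehicle for the controls. Whether the 3 arrays of a group stand for separate cultures is not given in the labels, so the p-values measure only the spread between these arrays, and precision is limited by their number.

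Of 8 Reed-Sternberg markers, 7 were above background on all 12 arrays, among them TNFRSF8 (CD30), while IL13 was above background on none. Their summed normalised intensity was 42636 to 45698 with givinostat, 69690 to 71426 with sorafenib, 51329 to 52977 with the combination and 57556 to 64985 in controls. CCL17 and BATF3, the brightest, with log2 means of 14.68 and 14.66 in controls, weigh most in this sum. With givinostat the log2 changes of the 7 ran from -1.15 (TNFRSF8) to 0.52 (GATA3). Only MS4A1 of 5 B cell markers with a probe, CD2 of 6 T cell markers and CSF1R, CD68 and FCGR3A of 6 monocyte markers passed the background filter, and CD3D, CD3E and CD3G were above background on 0 of 12 arrays. The summed level of the T cell list, which is that of CD2 alone, was 15706 to 17447 with givinostat, 13600 to 13929 with sorafenib, 13551 to 14910 with the combination and 11365 to 13127 in controls. For the monocyte list the ranges were 778 to 911, 815 to 1021, 1030 to 1235 and 966 to 1052 for givinostat, sorafenib, the combination and controls. FCGR3A passed the filter only through sorafenib and the combination, with 0 givinostat and 0 control arrays above background. The other genes moved apart. CSF1R had log2 means of 7.66 with givinostat and 8.65 in controls, and CD68 had 9.58 with the combination and 9.11 in controls. The part of these lists in the results was not tested. Mean raw intensity per array ran from 1034 (sorafenib C) to 1630 (control B), 16382 to 17934 of 48803 probes were above background, and the mean correlation of an array with the others of its group was 0.989 to 0.994.

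Class I molecules carry peptides of the cell's own proteins to CD8 T cells. Proteasomes cut the peptides, the TAP1 and TAP2 transporter moves them into the endoplasmic reticulum, aminopeptidases trim them, and tapasin helps to load them onto a heavy chain paired with B2M. Class II molecules carry peptides made in endosomes to CD4 T cells, with the invariant chain CD74 guarding the groove until HLA-DM exchanges the peptide. Interferon gamma raises both pathways, class I partly through IRF1 and class II through the coactivator CIITA, which works on promoters bound by RFX and NF-Y. Loss of class I or class II from the surface of Reed-Sternberg cells and gain of the CD274 gene are well-known features of Hodgkin lymphoma.

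The upstream sequences of 6 of these genes are shown because they carry promoter letters searched for here. The 6 include genes that changed and a gene that did not pass the test. The sequences are the 150 bases before the start site, 5′ to 3′ on the gene's strand, from RefSeq (GRCh38.p14). In B2M, TAP1, TAPBP and PSMB10 the capitals mark the core of the interferon-stimulated response element, on either strand. In HLA-DPB1 and HLA-DOA they mark CCAAT, the Y box bound by NF-Y, on either strand. B2M also carries CCAAT, on the minus strand at -49 to -45 from the start site, and there it is left in lower case.
B2M (chr15:44711367-44711516, plus strand): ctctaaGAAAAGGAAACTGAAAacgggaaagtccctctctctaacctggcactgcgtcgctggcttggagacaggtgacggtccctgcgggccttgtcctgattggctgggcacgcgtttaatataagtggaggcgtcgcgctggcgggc
TAP1 (chr6:32853705-32853854, minus strand): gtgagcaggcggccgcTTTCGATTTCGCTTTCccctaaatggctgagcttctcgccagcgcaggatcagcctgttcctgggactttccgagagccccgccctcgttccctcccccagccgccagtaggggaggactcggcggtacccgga
TAPBP (chr6:33314079-33314228, minus strand): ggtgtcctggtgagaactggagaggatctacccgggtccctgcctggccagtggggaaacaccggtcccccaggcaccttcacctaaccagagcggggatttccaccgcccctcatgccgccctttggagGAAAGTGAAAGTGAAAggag
PSMB10 (chr16:67936851-67937000, minus strand): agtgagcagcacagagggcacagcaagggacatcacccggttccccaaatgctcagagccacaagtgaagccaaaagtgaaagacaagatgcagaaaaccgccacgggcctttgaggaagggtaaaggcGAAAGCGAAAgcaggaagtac
HLA-DPB1 (chr6:33075840-33075989, plus strand): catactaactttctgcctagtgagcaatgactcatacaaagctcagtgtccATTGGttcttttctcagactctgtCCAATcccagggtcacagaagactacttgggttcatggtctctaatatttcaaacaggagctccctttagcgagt
HLA-DOA (chr6:33009592-33009741, minus strand): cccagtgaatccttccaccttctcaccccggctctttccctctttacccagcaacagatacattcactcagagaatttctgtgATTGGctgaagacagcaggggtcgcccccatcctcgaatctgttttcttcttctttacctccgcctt

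Windows of 250 bases before the start were found for 32 of the 37 genes. Each gene was read at the window of its outermost upstream start. The shares of all windows were taken without such a choice, so the units compared are not alike. The interferon response element core was present in 6 of 14 class I windows (HLA-F, B2M, TAP1, TAP2, TAPBP and PSMB10), in 0 of 10 class II windows and in that of CD274, against 3.02% of all 35116 windows. The matches in B2M, TAP1, TAPBP and CD274 come in pairs that overlap. CCAAT was present in 6 of 14 class I and 9 of 10 class II windows, against 32.0% of all windows. The class I windows of TAP1 and PSMB9 overlap by 13 bases and share the same CCAAT, which is counted for both genes. The X box core was present in HLA-DRB1, HLA-DQB1, HLA-DMA and HLA-DMB, in 0 of 14 class I windows, and in 1.91% of all windows. Both strands were searched, and a match is a description of these letters.

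**Figure D1:**
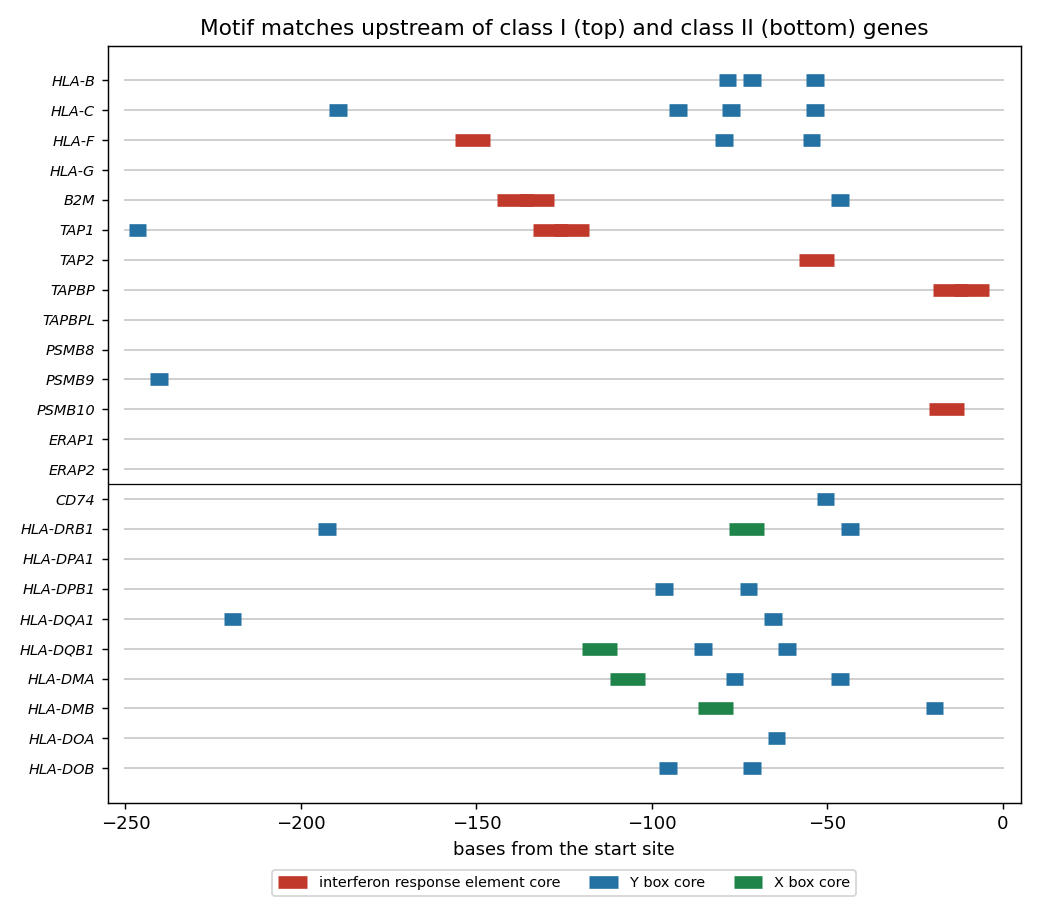
Matches of the 3 motifs in the 250 bases before the start site of each class I gene (top) and class II gene (bottom), drawn by distance in bases from the start site and coloured by motif. The interferon response element core appears in 6 class I rows and in 0 class II rows, the X box core in 4 class II rows.

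Most transcripts for making and loading class I peptides were lower with givinostat, while the class I chains did not pass the test on their brightest probes, by which each gene was counted. Of the 35 genes, 10 were lower and 2 were higher with givinostat than in controls (limma, Benjamini-Hochberg adjusted p under 0.05 over 10529 genes). Among all genes 15.7% were lower and 17.6% higher, and the 34.3% of members called was close to the 33.3% of all genes called in either direction. By role, 6 of 9 genes of peptide supply and loading were lower (median log2 change -0.51). Of 6 class I chains, 0 were called (median 0.06). Of 10 class II chains and loading genes, 2 were higher and 0 lower (median 0.11), beside a median of -0.02 over all genes. The class II transactivator CIITA, 2 of 6 RFX and NF-Y subunits and CD80 were also lower. In RNA pooled from a whole culture, fewer cells expressing a gene and less of its RNA per cell cannot be told apart.

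**Figure D2:**
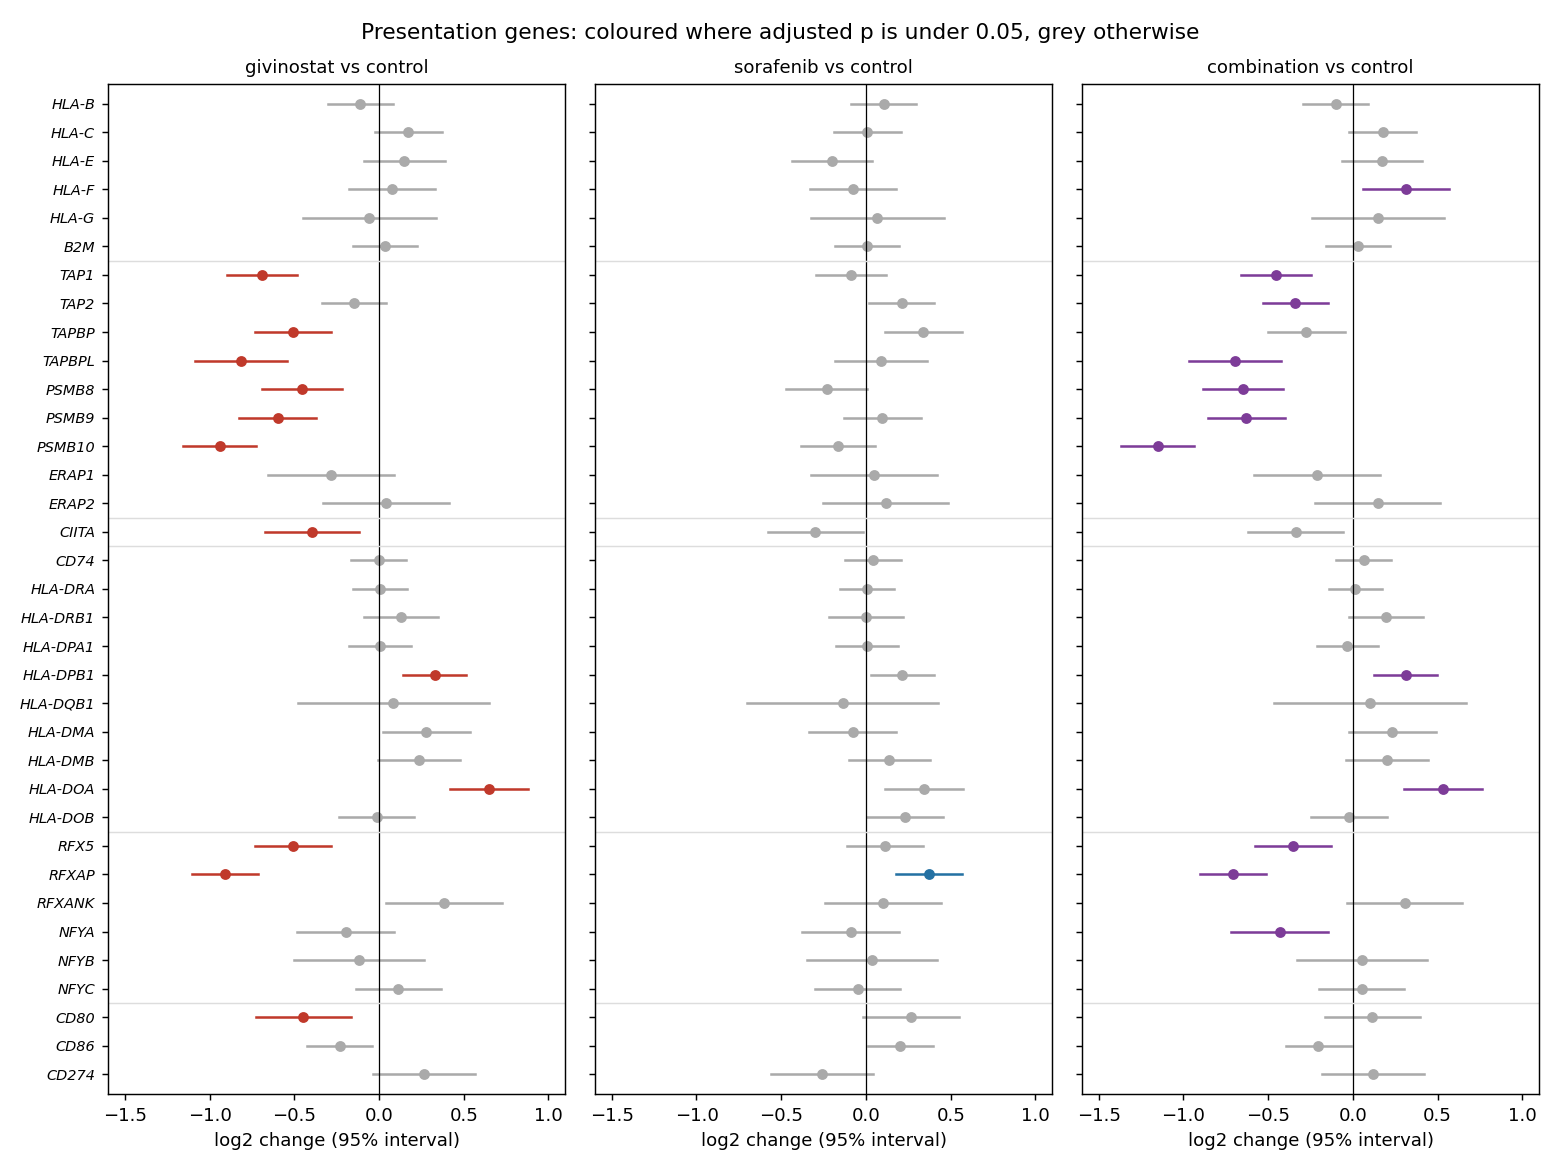
Log2 change of each of the 35 genes tested with givinostat, sorafenib and the combination, each against control, with its 95% confidence interval from limma, in order of role. The proteasome and TAP genes lie below 0 with givinostat and with the combination, from -0.15 to -1.15, and the changes with sorafenib lie between -0.30 and 0.37.

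The proteasome subunits PSMB8, PSMB9 and PSMB10, which replace the catalytic subunits of the standard proteasome in the immunoproteasome, were lower with givinostat and with the combination. PSMB10 had normalised log2 intensities of 12.04, 12.21 and 12.28 with givinostat, 12.99, 12.94 and 12.92 with sorafenib, 12.13, 11.87 and 11.89 with the combination, and 13.10, 13.04 and 13.21 in controls. All 6 arrays with givinostat, alone or combined, lay below all arrays of sorafenib and control. It fell by 0.94 with givinostat, to 52.1% of control (SE 0.10, adjusted p = 2.9e-05, limma), and by 1.15 with the combination, to 45.0% of control (SE 0.10, adjusted p = 4.9e-06).

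PSMB9 had log2 intensities of 10.51, 10.71 and 10.56 with givinostat, 11.33, 11.36 and 11.17 with sorafenib, 10.58, 10.56 and 10.55 with the combination, and 11.23, 11.35 and 11.00 in controls. PSMB8 had 12.94, 12.96 and 12.68 with givinostat, 13.14, 13.15 and 12.96 with sorafenib, 12.82, 12.52 and 12.66 with the combination, and 13.33, 13.29 and 13.33 in controls. For each gene neither the givinostat nor the combination arrays overlapped the controls. PSMB9 fell by 0.60 with givinostat and by 0.63 with the combination (adjusted p = 9.8e-04 and 5.2e-04, limma), and PSMB8 by 0.46 and 0.65 (adjusted p = 0.0067 and 5.6e-04). PSMB9 lies head to head with TAP1 on chromosome 6, with 487 bases between the start sites. With sorafenib the log2 changes of PSMB8, PSMB9 and PSMB10 were -0.23, 0.10 and -0.17, none past the threshold.

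TAP1, a chain of the peptide transporter, had log2 intensities of 13.55, 13.62 and 13.63 with givinostat, 14.22, 14.33 and 14.05 with sorafenib, 13.72, 13.93 and 13.85 with the combination, and 14.21, 14.33 and 14.33 in controls. The sorafenib and control arrays overlapped, and all arrays with givinostat lay below them. TAP1 fell by 0.69 with givinostat and by 0.46 with the combination (SE 0.10 each, adjusted p = 2.1e-04 and 0.0024, limma). Its partner TAP2 had 11.28, 11.30 and 11.32 with givinostat, 11.53, 11.74 and 11.71 with sorafenib, 11.07, 11.07 and 11.19 with the combination, and 11.41, 11.53 and 11.41 in controls. TAP2 fell with the combination, by 0.34 (adjusted p = 0.0088). Its change with givinostat, -0.15 (95% confidence interval -0.34 to 0.04, adjusted p = 0.22), did not pass although the arrays did not overlap the controls.

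Tapasin (TAPBP), which bridges the transporter and the class I chain, had log2 intensities of 13.78, 13.53 and 13.59 with givinostat, 14.30, 14.56 and 14.60 with sorafenib, 13.85, 13.96 and 13.80 with the combination, and 14.19, 14.09 and 14.15 in controls. The sorafenib arrays were the highest and the givinostat arrays the lowest of the 12. TAPBP fell by 0.51 with givinostat (adjusted p = 0.0027, limma). The changes of 0.34 with sorafenib (adjusted p = 0.084) and -0.27 with the combination (adjusted p = 0.051) missed the threshold. The 2 other TAPBP probes also fell with givinostat, by 0.64 and 0.89 (adjusted p = 0.037 and 0.0014 over all 16927 probes above background). With the combination these probes gave -0.09 and -0.56 (adjusted p = 0.78 and 0.016), and the brightest probe passed under 7 of 15 alternatives (adjusted p as low as 0.0088, with median scaling). TAPBPL, a tapasin-related peptide editor, had 9.07, 9.24 and 9.19 with givinostat, 10.29, 10.14 and 9.78 with sorafenib, 9.36, 9.14 and 9.36 with the combination, and 10.01, 10.01 and 9.93 in controls. It fell by 0.81 with givinostat and by 0.70 with the combination (adjusted p = 4.2e-04 and 8.9e-04), and no array with givinostat reached the lowest of the sorafenib or control arrays.

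The aminopeptidases that trim peptides, ERAP1 and ERAP2, did not pass in any comparison with control. The log2 change of ERAP1 was -0.28 with givinostat and -0.21 with the combination. ERAP2 changed by 0.04 and 0.15 on its brightest probe, while its other probe gave -0.45 and -0.53 (adjusted p = 0.016 and 0.0053 over all probes, limma), so the probes of this gene disagree.

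**Figure D3:**
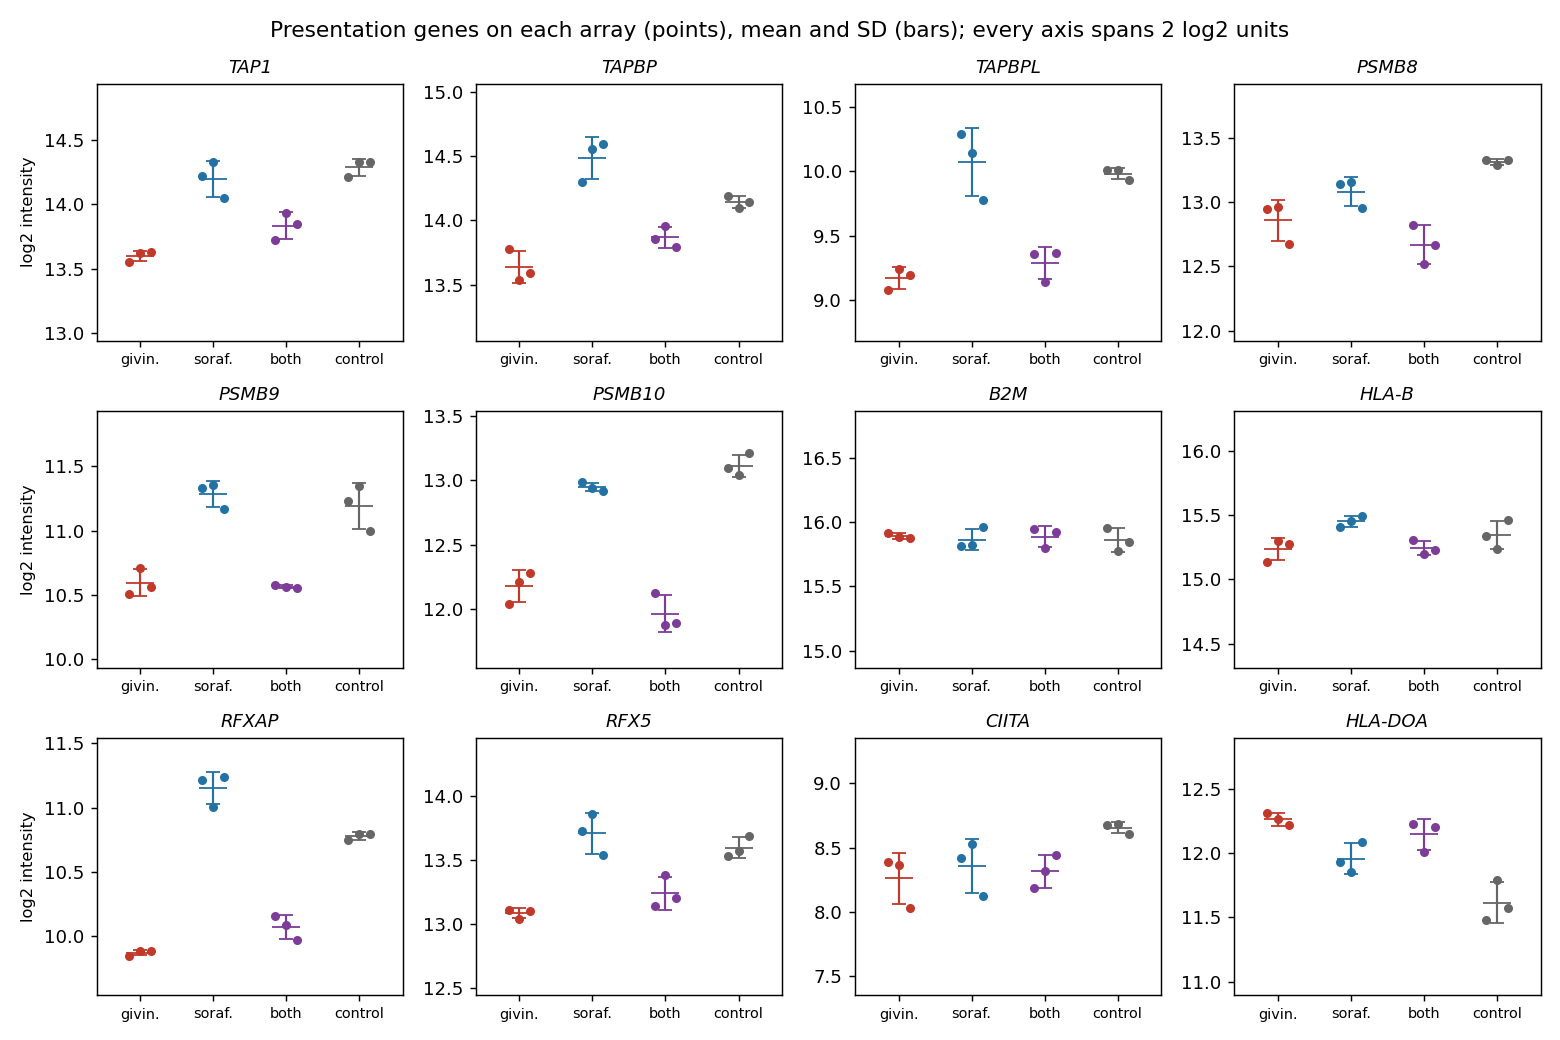
Normalised log2 intensity of selected genes on each of the 12 arrays, by group in the order givinostat, sorafenib, combination and control, each as a point, with the mean and SD of the group as bars and 2 log2 units on every axis. PSMB10 and RFXAP show the givinostat and combination arrays below all sorafenib and control arrays, and HLA-DOA shows them above the controls.

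Among the class I chains, the heavy chains HLA-B and HLA-C, which present to CD8 T cells, HLA-E and HLA-G, which engage receptors of natural killer cells, HLA-F and the light chain B2M were above background on all 12 arrays. HLA-B had log2 intensities of 15.14, 15.30 and 15.28 with givinostat, 15.41, 15.46 and 15.49 with sorafenib, 15.30, 15.20 and 15.23 with the combination, and 15.34, 15.24 and 15.46 in controls. Its change with givinostat was -0.11 (95% confidence interval -0.30 to 0.08), and the arrays overlapped. HLA-C changed by 0.17 with givinostat (interval -0.03 to 0.37) and B2M by 0.04 (interval -0.15 to 0.22), neither past the threshold. The HLA-C arrays with givinostat did not overlap the controls. The raw signals of this B2M probe were 56955 to 65140, where the brightest probe of an array read 69004 to 72773, so that differences there may be compressed. The second B2M probe was higher with the combination by 0.35 (adjusted p = 0.020 over all probes, limma) and changed by 0.01 with givinostat. Probes of HLA heavy chains and of HLA-DRB1 can read near-identical copies of the gene, which makes their assignment uncertain.

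HLA-F had log2 intensities of 13.73, 13.44 and 13.45 with givinostat, 13.36, 13.54 and 13.26 with sorafenib, 13.93, 13.63 and 13.77 with the combination, and 13.55, 13.41 and 13.43 in controls. On this probe, the brightest, it rose with the combination, by 0.31 (SE 0.12, adjusted p = 0.048, limma). This call was lost under 7 of 15 alternatives (adjusted p up to 0.56 over all alternatives). They were median scaling, no background filter, and the removal of combination array A or C or of any control array. Over the alternatives the change ran from 0.12 to 0.46. Whether the combination differed from givinostat was tested for this gene and did not pass (0.23, adjusted p = 0.33). The second HLA-F probe, above background on all 12 arrays, was higher with givinostat by 0.37 and with the combination by 0.61 (adjusted p = 0.020 and 8.6e-04 over all probes, limma), and changed by 0.31 with sorafenib (adjusted p = 0.13). The call of HLA-F with givinostat thus depends on the probe.

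Of the class II chains, no call was made for the brightest. On their brightest probes CD74, HLA-DRA, HLA-DRB1 and HLA-DPA1 changed by between -0.03 and 0.20 on the log2 scale in the comparisons with control, and none passed. HLA-DRA, the alpha chain of HLA-DR, had a raw signal of 63661 to 68937, close to the brightest probes, and HLA-DPA1 and CD74 had 58613 to 65647 and 57763 to 64889, so these probes too may be compressed. Another CD74 probe, with a mean log2 level of 12.51 with givinostat and 11.99 in controls, was higher by 0.51 with givinostat and by 0.44 with the combination (adjusted p = 0.012 and 0.022 over all probes, limma), while the remaining probe changed by -0.13 and -0.02. HLA-DQB1 was dim, above background on 2 of 3 sorafenib arrays, and its change with givinostat was 0.09 (interval -0.48 to 0.65).

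HLA-DOA and HLA-DPB1 rose. HLA-DOA, a chain of the HLA-DO molecule that restrains HLA-DM, had log2 intensities of 12.32, 12.26 and 12.22 with givinostat, 11.94, 11.85 and 12.09 with sorafenib, 12.23, 12.01 and 12.21 with the combination, and 11.48, 11.79 and 11.58 in controls. All 9 drug-treated arrays lay above the 3 controls. The rise was 0.65 with givinostat, to 157% of control (SE 0.11, adjusted p = 6.6e-04, limma), and 0.53 with the combination (adjusted p = 0.0018), and the change with sorafenib was 0.34 (adjusted p = 0.087). HLA-DPB1, the beta chain of HLA-DP, had 11.10, 11.21 and 11.16 with givinostat, 10.93, 11.03 and 11.16 with sorafenib, 11.20, 11.14 and 11.08 with the combination, and 10.80, 10.86 and 10.82 in controls. It rose by 0.33 with givinostat and by 0.31 with the combination (adjusted p = 0.011 and 0.012), and its sorafenib change of 0.22 did not pass (adjusted p = 0.17). Under scaling of the arrays to a common median these rises of HLA-DPB1 were 0.18 and 0.17 and no longer passed (adjusted p = 0.27 and 0.28).

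The peptide exchange chains HLA-DMA and HLA-DMB had log2 changes of 0.28 and 0.24 with givinostat and 0.23 and 0.20 with the combination, with no overlap of arrays with controls and no call (adjusted p = 0.087, 0.12, 0.14 and 0.17, limma). HLA-DOB, the partner of HLA-DOA, changed by -0.01 with givinostat, 0.23 with sorafenib and -0.02 with the combination.

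CIITA, the coactivator on which class II transcription depends, had log2 intensities of 8.39, 8.36 and 8.03 with givinostat, 8.42, 8.53 and 8.12 with sorafenib, 8.19, 8.32 and 8.44 with the combination, and 8.68, 8.68 and 8.61 in controls. The 3 controls were the highest of the 12 arrays. CIITA fell by 0.39 with givinostat (SE 0.13, adjusted p = 0.032, limma), and its changes with sorafenib (-0.30, adjusted p = 0.20) and with the combination (-0.34, adjusted p = 0.051) did not pass. The givinostat call was lost without givinostat array C (-0.28, adjusted p = 0.13), without any of the 3 controls (adjusted p = 0.057 to 0.081) and without the background filter (adjusted p = 0.061). CIITA was called lower with the combination under 5 of 15 alternatives, among them array weights and the array letter as a block (adjusted p = 0.026 and 0.049).

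RFXAP and RFX5, subunits of the complex that binds the X box, were lower with givinostat. RFXAP had log2 intensities of 9.85, 9.88 and 9.88 with givinostat, 11.21, 11.00 and 11.24 with sorafenib, 10.16, 10.08 and 9.97 with the combination, and 10.74, 10.80 and 10.80 in controls. The 4 groups did not overlap, with givinostat lowest and sorafenib highest. RFXAP fell by 0.91 with givinostat and by 0.71 with the combination (SE 0.09 each, adjusted p = 1.7e-05 and 7.6e-05, limma). It was the only member called with sorafenib, where it rose by 0.37 (adjusted p = 0.038); 1 of 35 members compares with 2.97% of all genes higher, 1.58% lower and 4.55% in either direction with that drug. The sorafenib call was lost under 11 of 15 alternatives (adjusted p up to 0.37 over all alternatives). Among them were median scaling, no background filter, the mean of the probes, only the compared groups fitted, array weights and the array letter as a block. The others were the removal of any control array or of sorafenib array A or C. A second RFXAP probe, above background on 11 of 12 arrays, gave 0.15, 0.25 and 0.49 for givinostat, sorafenib and the combination, none called, and with the mean of both probes the givinostat and combination changes were -0.38 and -0.11 (adjusted p = 0.071 and 0.59).

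RFX5 had log2 intensities of 13.11, 13.04 and 13.11 with givinostat, 13.73, 13.86 and 13.54 with sorafenib, 13.14, 13.38 and 13.20 with the combination, and 13.53, 13.57 and 13.69 in controls. All arrays with givinostat, alone or combined, lay below the sorafenib and control arrays. RFX5 fell by 0.51 with givinostat and by 0.35 with the combination (adjusted p = 0.0026 and 0.016, limma), the combination call being lost without combination array A or C or control array C (adjusted p up to 0.064). RFXANK, the remaining subunit, had log2 changes of 0.38 with givinostat (adjusted p = 0.079) and 0.31 with the combination (adjusted p = 0.14), neither called. These changes passed under 5 and 2 of 15 alternatives, among them the array letter as a block (adjusted p = 0.022 and 0.046). A second RFXANK probe was higher by 0.42 and 0.37 (adjusted p = 0.013 and 0.020 over all probes, limma), and another changed by 0.01 and 0.13, so the call depends on the probe. NFYA, a subunit of the factor that binds CCAAT, had 9.65, 9.35 and 9.46 with givinostat, 9.55, 9.66 and 9.57 with sorafenib, 9.09, 9.48 and 9.19 with the combination, and 9.93, 9.52 and 9.61 in controls. The combination arrays lay below the controls and overlapped the givinostat arrays. NFYA fell with the combination, by 0.43 (adjusted p = 0.020), a call lost without combination array A or C or control array A (adjusted p up to 0.089), and its change with givinostat was -0.20. NFYB and NFYC changed by between -0.12 and 0.11 in the comparisons with control.

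Of the T cell signalling molecules, CD80, a ligand of the activating receptor CD28 and of CTLA4, had log2 intensities of 9.38, 9.53 and 9.83 with givinostat, 10.32, 10.30 and 10.25 with sorafenib, 10.02, 10.01 and 10.39 with the combination, and 9.94, 10.08 and 10.06 in controls. The givinostat arrays were the lowest of the 12. CD80 fell by 0.45 with givinostat (SE 0.13, adjusted p = 0.019, limma), a call lost when givinostat array A or B, or control array B or C, was left out (adjusted p reaching 0.084), and changed by 0.12 with the combination (adjusted p = 0.51). CD86, the other ligand of these receptors, had 12.93, 12.91 and 13.00 with givinostat, 13.43, 13.48 and 13.24 with sorafenib, 12.93, 13.02 and 12.98 with the combination, and 13.26, 13.13 and 13.15 in controls. Its brightest probe changed by -0.23 with givinostat and -0.20 with the combination without passing (adjusted p = 0.061 and 0.085). The 2 other CD86 probes were lower, with log2 changes of -0.53 and -0.86 with givinostat (adjusted p = 0.015 and 3.4e-04 over all probes) and of -0.61 and -0.996 with the combination (adjusted p = 0.0057 and 9.5e-05), so the call of CD86 depends on the probe. CD274 (PD-L1), a ligand of the inhibitory receptor PD-1, changed by 0.27 with givinostat, -0.26 with sorafenib and 0.12 with the combination, none past the threshold.

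With the combination, 3 members were higher (HLA-F, HLA-DPB1 and HLA-DOA) and 9 lower, beside 20.9% of all genes higher, 20.5% lower and 41.4% in either direction. Peptide supply and loading again had 6 of 9 genes lower (median -0.46), with TAP2 called in place of TAPBP, and the class I chains had 1 of 6 higher (median 0.16). The comparisons with control share the control arrays, so their changes are not independent of each other.

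The direct comparisons of the combination with each drug showed where it stood. Against givinostat, 0 of 35 members were called (5 at an unadjusted p under 0.05), while 1.34% of all genes were. The difference nearest to the threshold was in CD80, higher with the combination by 0.56 (95% confidence interval 0.28 to 0.84, adjusted p = 0.060, limma), and this passed under 5 alternatives, the removal of givinostat array C among them (adjusted p = 0.044). PSMB10 differed by -0.21 (interval -0.43 to 0.01), TAP1 by 0.23 (interval 0.03 to 0.44) and HLA-DOA by -0.12 (interval -0.35 to 0.11), none called.

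Against sorafenib, the combination had 13 of 35 members changed, 3 higher and 10 lower, beside 17.8% of all genes higher and 17.5% lower. The lower members were 7 of the 9 genes of peptide supply and loading (TAP1, TAP2, TAPBP, TAPBPL, PSMB8, PSMB9 and PSMB10), RFX5, RFXAP and CD86. RFXAP was lower, with a log2 difference of -1.08 (SE 0.09, adjusted p = 5.0e-06, limma), as were TAPBP with -0.61 and CD86 with -0.41 (adjusted p = 8.0e-04 and 0.0039). The higher members were HLA-E, HLA-F and CD274.

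HLA-E had log2 intensities of 10.62, 10.82 and 10.84 with the combination and 10.29, 10.53 and 10.35 with sorafenib. CD274 had 10.53, 10.94 and 10.60 with the combination and 10.37, 10.21 and 10.35 with sorafenib. In neither gene did the arrays of these groups overlap. HLA-E was higher with the combination by 0.37 (adjusted p = 0.019, limma), a call lost without sorafenib array A or combination array B or C (adjusted p up to 0.069). CD274 was higher by 0.38 (adjusted p = 0.049, limma), a call lost under 8 of 15 alternatives (adjusted p up to 0.19 over all alternatives). They were no background filter, only the compared groups fitted, the array letter as a block, and the removal of any sorafenib array or of combination array B or C. HLA-F was higher by 0.39 (adjusted p = 0.021), a call lost without sorafenib array A or C, without combination array A or C and with median scaling (adjusted p up to 0.085).

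The departure of the combination from the sum of the log2 changes of both drugs was called in 0 of 35 members and in 0.019% of all genes (limma), 0.0095% in each direction. At an unadjusted p under 0.05 it was seen in 3 members, TAP2 (-0.40, adjusted p = 0.30), HLA-DOA (-0.46, adjusted p = 0.32) and TAP1 (0.32, adjusted p = 0.42). A difference among the 4 groups was called in 15 of 35 members by limma's moderated F test, of which 8 were class I and 2 class II genes, beside 46.5% of all genes.

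Class I and class II genes were set side by side by the median log2 change of their tested members, without a test over members. With givinostat the medians were -0.15 over 15 class I genes and 0.09 over 11 class II genes, a difference of -0.23 (SD 0.05 over 3 arrays). These medians are the values of TAP2, which was not called, and of the dim HLA-DQB1 (confidence interval -0.48 to 0.65). The SD covers the spread between arrays and leaves out the uncertainty of these genes. Among the class II genes, the probes of CD74, HLA-DRA and HLA-DPA1 may be compressed. The arrays gave -0.22, -0.21 and -0.30 with givinostat, against 0.01, -0.08 and 0.02 in controls, each relative to the mean of the controls. With the combination the medians were -0.21 and 0.10, a difference of -0.31 (SD 0.10 over 3 arrays), and the arrays gave -0.43, -0.23 and -0.29. Here the medians are the values of ERAP1 (interval -0.58 to 0.16) and again of HLA-DQB1 (interval -0.46 to 0.66), neither called. With sorafenib the class medians were 0.05 and 0.01, a difference of 0.04 (SD 0.10 over 3 arrays). The sorafenib arrays gave -0.12, -0.14 and 0.05, so the sign of this difference is not settled. The medians over all genes were -0.02, 0.00 and -0.02 for givinostat, sorafenib and the combination.

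The class I median joins roles with different values. The 9 genes of peptide supply and loading had array medians of -0.37, -0.48 and -0.63 with givinostat, 0.08, 0.04 and -0.02 with sorafenib, -0.49, -0.38 and -0.44 with the combination, and 0.01, 0.03 and 0.01 in controls. The 6 class I chains had 0.08, 0.03 and 0.00 with givinostat, -0.03, -0.05 and 0.08 with sorafenib, 0.16, 0.06 and 0.12 with the combination, and 0.07, -0.06 and -0.02 in controls. The arrays with givinostat lay below the rest for peptide supply, and for the chains the givinostat arrays overlapped the controls.

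**Figure D4:**
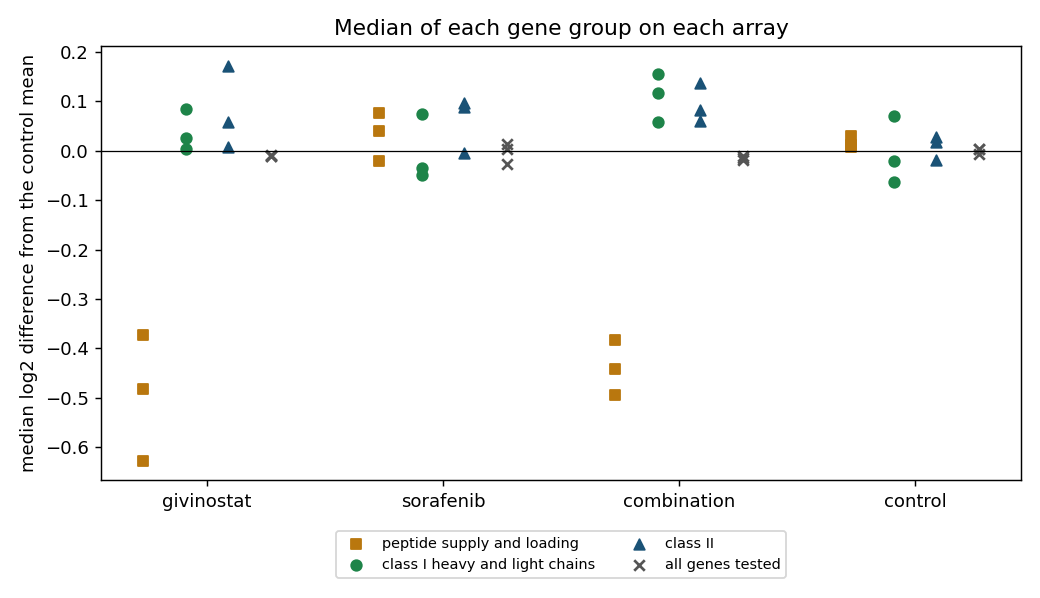
Median log2 difference from the control mean on each array, by group in the order givinostat, sorafenib, combination and control, for 9 genes of class I peptide supply and loading, 6 class I chains, 11 class II genes and all 10529 genes. The peptide supply medians of the givinostat and combination arrays lie between -0.63 and -0.37, below every other point.

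Of the 32 genes with an upstream window, the interferon response element core was present in 3 of 9 that were lower with givinostat (TAP1, TAPBP and PSMB10), in 4 of 20 that were not called (HLA-F, B2M, TAP2 and CD274) and in 0 of 2 that were higher. HLA-DQA1, which had a window and no probe, is in none of these counts. CCAAT was present in 3 of 9 lower genes (TAP1, PSMB9 and RFX5), in 11 of 20 genes not called and in both HLA-DOA and HLA-DPB1. The CCAAT of TAP1 and that of PSMB9 are the same site, counted for both genes. Over all windows the shares were 3.02% for the interferon response element core and 32.0% for CCAAT.

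Genes of the interferon gamma axis, which drives many of these promoters, were called in both directions. Of 7 tested among 10 listed, 2 were lower and 1 higher with givinostat, 0 were called with sorafenib, and 2 were lower and 2 higher with the combination. Among all genes 33.3% were called with givinostat and 41.4% with the combination, and counts over so few genes are not set apart from these shares. IRF1, a transcription factor that binds the interferon response element, had log2 intensities of 10.80, 10.87 and 11.17 with givinostat, 11.94, 11.81 and 11.20 with sorafenib, 11.28, 11.11 and 11.30 with the combination, and 11.87, 11.90 and 12.17 in controls. The givinostat and combination arrays lay below the controls, and sorafenib array C lay among the combination arrays. IRF1 fell by 1.03 with givinostat, to 48.8% of control, and by 0.75 with the combination (SE 0.18 each, adjusted p = 8.7e-04 and 0.0049, limma), and changed by -0.33 with sorafenib (adjusted p = 0.31).

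The receptor chains moved apart: IFNGR1 rose by 0.41 and 0.39 and IFNGR2 fell by 0.73 and 0.48 with givinostat and the combination (adjusted p = 0.0018, 0.0020, 0.0016 and 0.015, limma), and their sorafenib changes were 0.06 and 0.12. The receptor-bound kinase JAK2 rose with the combination, by 0.38 (adjusted p = 0.020), with changes of 0.28 with givinostat and 0.42 with sorafenib (adjusted p = 0.076 and 0.058). PDCD1LG2, the second ligand of PD-1, changed by 0.14, 0.13 and 0.27 with givinostat, sorafenib and the combination, none called. IRF9, an interferon-responsive transcription factor, changed by 0.18 with sorafenib without passing.

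Among the other genes of class I assembly, 9 of 12 were tested, and 2 were lower and 1 higher with givinostat, a share equal to the 33.3% of all genes called. PSME2, a subunit of the interferon-induced proteasome activator, fell by 0.47 with givinostat and by 0.56 with the combination (adjusted p = 0.011 and 0.0033, limma), while its partner PSME1 changed by -0.22 with givinostat (adjusted p = 0.083). SEC61A1, a channel of the endoplasmic reticulum, fell by 0.32 with givinostat, and NPEPPS, a cytosolic aminopeptidase, rose by 0.41 (adjusted p = 0.035 and 0.013). The chaperone HSPA5 was the only gene of this list called with sorafenib, where it fell by 0.41 (adjusted p = 0.039), and it fell by 0.40 with the combination, as did PSME3 by 0.46 (adjusted p = 0.0060 and 0.0040). With sorafenib PSME3, CANX and PSME2 changed by -0.31, 0.13 and -0.19, and with the combination SEC61A1 changed by -0.27, none called.

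Genes of endosomal processing, which supplies class II peptides, were higher with givinostat in 6 of 11 tested and lower in 0, beside 17.6% of all genes higher and 15.7% lower. LGMN, an asparaginyl endopeptidase of lysosomes, had log2 intensities of 9.21, 9.51 and 9.50 with givinostat, 7.46, 8.03 and 7.60 with sorafenib, 9.61, 9.90 and 9.84 with the combination, and 7.93, 7.77 and 8.03 in controls. No array with givinostat overlapped an array without it. LGMN rose by 1.50 with givinostat and by 1.87 with the combination (SE 0.15 each, adjusted p = 1.9e-05 and 2.8e-06, limma). The cathepsins CTSD and CTSZ and the adaptor subunit AP2M1 rose by 0.32, 0.36 and 0.32 with givinostat (adjusted p = 0.013, 0.015 and 0.014). With the combination 4 were higher and 1 lower, beside 20.9% and 20.5% of all genes. CTSS had the lowest change of the list, -0.55 with the combination and, without a call, -0.33 with givinostat. CTSB rose by 0.64, CTSD by 0.28 and AP1S1 by 0.42 (adjusted p = 0.0026, 0.021 and 0.022). With sorafenib 0 were called, and CTSZ, LGMN, CTSS and AP2M1 changed by -0.26, -0.21, 0.24 and 0.11.

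Of 7 tested among 15 further MHC and MHC-like genes, MICA, a stress ligand of the NKG2D receptor, rose by 0.63 with givinostat and by 0.75 with the combination (SE 0.14 each, adjusted p = 0.0048 and 0.0012, limma). MICA had log2 intensities of 7.28, 7.59 and 7.55 with givinostat, 7.12, 7.27 and 6.91 with sorafenib, 7.45, 7.60 and 7.74 with the combination, and 7.11, 6.68 and 6.75 in controls. HLA-DRB3 rose with the combination, by 0.28 (adjusted p = 0.018), and its probe can read other DRB genes. MR1, which presents vitamin metabolites, changed by 0.32 with givinostat and by -0.45 with sorafenib, neither past the threshold (adjusted p = 0.066 and 0.062), and no other gene of this list was called against control (HLA-DRB3 with the single drugs, HLA-DRB4, HLA-H and MICB changed by between -0.26 and 0.17).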

How the data were processed

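Total RNA of HDLM-2 cells was measured on 12 Illumina bead arrays, 3 in each of 4 groups. The authors deposited a non-normalized intensity per probe and array with a detection value, and a processed intensity table; BeadStudio is named per the submitters' processing notes, with no further step given in the sources used here. The deposited detection value rises with intensity, so the detection p-value was taken as 1 minus it. The processed table ranks probes as the non-normalized one does and its column medians were 218.6 to 218.7; it served as an alternative.

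Intensities were background corrected, quantile normalised and put on the log2 scale with neqc of limma 3.58.1 in R 4.3.3 (offset 16). Probes with a detection p under 0.05 throughout the 3 arrays of some group were kept, 16927 of 48803 probes. Of all probes, 28098 had 1 gene symbol in the platform annotation, 13 had several and 20692 had none there. A gene was represented by its brightest kept probe over the 12 arrays. limma fitted the 4 groups together over 10529 genes, with Benjamini-Hochberg adjustment over all of them and a call at an adjusted p under 0.05, tested on simulated data. The interaction is the combination minus givinostat minus sorafenib plus control.

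Named genes were every member, up to 4 genes with the smallest p of each other list in each comparison with control, and IRF1, IFNGR1, JAK2 and PDCD1LG2 throughout; a further gene under this rule is not reported here. The members and lists were chosen with earlier results of these data known. Promoter windows are RefSeq's (GRCh38.p14). Alternatives covered background correction, scaling, filter, probe choice, the processed table, the samples fitted, array weights, the array letter as a block and leaving out each array; fitting each probe singly was added after seeing the data.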

Additional observations from a re-analysis of the deposited data

How the results depend on the processing

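The member counts for givinostat, the combination and the combination against sorafenib stayed within 1.5 times of the reported count under all 15 alternatives each, and no change of a called member reversed. Of the calls, 8 of 12 with givinostat, 7 of 12 with the combination, 8 of 13 of the combination against sorafenib and 0 of 1 with sorafenib were kept under every alternative; the cause of the losses was not tested. Conversely, changes against control that missed the threshold as reported were called under some alternatives, besides those of TAPBP, CIITA and RFXANK with the combination or givinostat: CD86 under 5 with givinostat and 3 with the combination, HLA-DMA under 3 with givinostat, and TAPBP under 3 and HLA-DOA under 2 with sorafenib. With sorafenib, 3 members were called without background correction and with the authors' processed values, and 0 with median scaling, without the detection filter, with the mean of probes, with only the compared groups, with array weights or with the replicate block. Between the combination and givinostat, 1 member (CD80) was called without background correction, with genes detected on all 12 arrays, with the authors' values and with array weights. Leaving out 1 array at a time gave 10 to 12 members with givinostat, 0 to 1 with sorafenib, 9 to 12 with the combination, 0 to 1 for the combination against givinostat, 10 to 13 against sorafenib and 0 for the interaction.

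The class I minus class II median with givinostat was -0.18 without background correction and with the authors' values, -0.39 with median scaling, -0.33 with the mean of probes, and -0.32 to -0.17 with 1 array left out. With sorafenib it was -0.12 with median scaling and -0.06 to 0.06 with 1 array left out, and with the combination -0.50 to -0.22. Without control array B it was -0.50 with the combination, and without givinostat array C -0.17 with givinostat.

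Median scaling moved the median of all genes by -0.12, -0.17 and -0.09 with givinostat, sorafenib and the combination. Counted by sign against 0, so with these shifts included, the members split as 1 higher and 11 lower with givinostat and with the combination. As reported they split as 2 and 10 and as 3 and 9. Over all genes it gave 1106 higher and 1996 lower with givinostat (1856 and 1653 as reported), 79 and 366 with sorafenib (313 and 166), 1503 and 2287 with the combination (2201 and 2156), and 1951 and 911 for the combination against sorafenib (1873 and 1847). PSMB8 and TAP1 were then not called against sorafenib (adjusted p = 0.076 and 0.11, limma).

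Arrays of the same letter in different groups correlated at -0.06 to 0.25 in their deviations from the group means (median 0.03, 5 of 18 pairs over 0.1). Arrays of different letters correlated at -0.24 to 0.12 (median -0.02, 2 of 36 pairs over 0.1), so the same-letter pairs reached higher values. The labels do not say what the letter stands for. It was left out of the main fit and used as a block in an alternative. With it as a replicate block 13 members were called with givinostat, 0 with sorafenib, 14 with the combination, 0 for the combination against givinostat, 12 against sorafenib and 0 for the interaction. Signals near the top of the scale and 3 arrays a group limit what could be seen.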

Other observations

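Of 13 molecules of T cell contact listed outside the 37 genes, 10 were tested. Among these, ICAM1 and NECTIN2 passed the background filter only through groups in which they are high. The same holds for ICOSLG, above background on 3 combination arrays and on 1 array of each other group. It also holds for TNFSF9, above background on 3 givinostat, 1 sorafenib, 2 combination and 1 control arrays. The calls of ICAM1 and NECTIN2 would enter the counts with givinostat and with the combination, so those counts are not set against the shares of all genes. With sorafenib 0 of the 10 were called, beside 4.55% of all genes. ICAM1, the adhesion ligand of LFA-1, was above background on all 3 control arrays and on none of the 9 others, with log2 means of 5.67 with givinostat, 6.19 with sorafenib, 5.55 with the combination and 6.51 in controls. It was at least 1.19-fold lower with givinostat and at least 1.29-fold lower with the combination. With sorafenib ICAM1 was lower too, by a bound that lay between those of givinostat and the combination. These bounds set the control mean against the higher, on each array, of the lowest signal among probes above background and the signal of the probe itself. NECTIN2, a ligand of the receptors CD226 and TIGIT, passed the background filter on 3 of 3 arrays with givinostat and 0 of 3 controls, with log2 means of 6.91 and 6.01, and was at least 1.58-fold higher with givinostat. With sorafenib (2 of 3 arrays above background) and with the combination (3 of 3) NECTIN2 was at least 1.14-fold and 1.18-fold higher. ICAM1 passed the background filter through the controls alone and NECTIN2 passed through groups in which it is high, so these differences are given without a test.

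CD40, which receives help from CD4 T cells, fell by 0.35 with givinostat (adjusted p = 0.0497, limma) and changed by 0.24 with sorafenib without passing. LGALS9, a lectin that binds the T cell receptor TIM-3, rose by 0.48 with the combination (adjusted p = 0.029) and changed by 0.26 with givinostat (adjusted p = 0.22). CD276, an immunoglobulin family member related to CD274, changed by 0.28 with sorafenib (adjusted p = 0.15).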
